A study of Mus musculus with 2 samples.

Results

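The 44 collagen chain genes described here are those whose symbol begins with Col and joins a collagen type number to an alpha chain number, such as *Col4a1*. They were taken from the 27998 genes of 2 single-cell RNA-seq libraries of mouse lung. Each library held the cells of whole lungs from 8 C57BL/6 mice at postnatal day 14 (2 weeks of age), mixed into 1 sample. The mice of 1 group were kept in room air (21% O2) and those of the other in hyperoxia (80% O2) between birth (P0) and P14. This exposure is used as a model of bronchopulmonary dysplasia, in which alveolar and vascular growth are disturbed. The labels name no altered allele in either group, and the 8 mice of a pool could not be told apart. The lungs of both groups were dispersed with dispase, collagenase I and DNase, and red blood cells were lysed. With 1 library per group there was no replicate, so no test between the groups was possible, and no p-value, SD or SE is given.

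A collagen is built from 3 alpha chains wound into a triple helix, and the genes of this family code for the single chains. Fibrillar collagens such as types I, III and V are secreted mostly by mesenchymal cells and assemble into the fibrils that bear load in vessel walls, airways and alveolar septa. Type IV collagen forms a sheet-like network in basement membranes, to which both epithelial and endothelial cells contribute. Other members decorate fibrils, form beaded filaments, sit in the cell membrane or, as types XV and XVIII, carry sugar chains near basement membranes. In the lung the type IV network lies between the alveolar epithelium and the capillary and is part of the barrier across which gas is exchanged.

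Both libraries were made with droplets and read at the 3′ end, where a unique molecular identifier (UMI) lets each captured RNA molecule be counted once, so that a level is a number of molecules and was not corrected for gene length. The room air library had 39593888 UMIs in 4234 barcodes and the hyperoxia library 111934936 UMIs in 13223 barcodes, and 17 barcodes were shared. After cells with few genes, many mitochondrial UMIs or a high doublet rank had been left out, 3680 cells of room air (median 8067 UMIs) and 10472 of hyperoxia (median 7229 UMIs) remained. Cells were clustered without any collagen gene, and clusters were named "X-like" from marker genes that included none. Each of the 12 stromal-like, endothelial-like and epithelial-like types used here had UMIs of all its markers in both libraries. Clusters that carried markers of more than one lineage, by a rule set after the clusters had been seen, were left unnamed and held 3.48% of the room air and 4.17% of the hyperoxia cells. A level is the sum of a gene's UMIs over the cells of a class, as counts per 1000000 UMIs of that class (CPM). Each log2 ratio is hyperoxia over room air and is followed by its exact 95% interval, which covers counting error only and not the difference between animals or between preparations. B-like cells, which are not a source of most collagens, were used as a guide to the level that free RNA gives. Their median was 4491 UMIs in room air and 2906 in hyperoxia, so the guide is a rough one for classes of other depth. In B-like cells the fibrillar genes summed to 171 and 269 CPM and the type IV genes to 50.5 and 99.7 CPM, with room air first here and in every later pair of values. Genes that respond to tissue dissociation were also higher in the hyperoxia library. In stromal-like cells their median log2 ratio was 0.57 over 12 genes, with 11 of the 12 above 0, against 50.5% of all genes. *Egr1* was at 1408 and 2080.4 CPM, and the part of these genes in the other differences was not tested.

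The genes of type IV collagen lie in 3 pairs that are read away from each other. The sequence around each shared start is given because the levels of the first and second pairs ran closely together across cell types, as described further on. The annotated starts (GENCODE vM21, GRCm38) are 21 bases apart for *Col4a1* and *Col4a2*, whose first exons overlap, 72 bases apart for *Col4a3* and *Col4a4*, and 1309 bases apart for *Col4a5* and *Col4a6*. The sequences are RefSeq's for build GRCm38.p6, 5′ to 3′ on the strand named, and capitals mark any CCAAT or GGGCGG found on either strand (searched together with TATAAA). The overlap lies at chr8:11312805-11312826 (plus strand), the gap at chr1:82586850-82586920 (plus strand), the part upstream of *Col4a5* at chrX:141475169-141475384 (plus strand) and that upstream of *Col4a6* at chrX:141474077-141474326 (minus strand).
Col4a1-Col4a2 overlap: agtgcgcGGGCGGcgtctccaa
Col4a3-Col4a4 gap: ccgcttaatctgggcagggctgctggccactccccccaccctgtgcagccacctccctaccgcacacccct
Col4a5 upstream: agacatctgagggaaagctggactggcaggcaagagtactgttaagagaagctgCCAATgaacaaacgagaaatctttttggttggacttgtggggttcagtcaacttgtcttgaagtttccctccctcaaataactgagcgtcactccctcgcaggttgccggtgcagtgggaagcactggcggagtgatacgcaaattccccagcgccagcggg
Col4a6 upstream: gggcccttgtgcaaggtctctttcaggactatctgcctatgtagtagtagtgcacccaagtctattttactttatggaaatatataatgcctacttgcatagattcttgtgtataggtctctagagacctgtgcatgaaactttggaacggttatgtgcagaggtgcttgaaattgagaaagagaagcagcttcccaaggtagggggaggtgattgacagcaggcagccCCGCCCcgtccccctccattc

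The 71 bases between *Col4a3* and *Col4a4* held none of the 3 motifs, the overlap of *Col4a1* and *Col4a2* held 1 GGGCGG, and the parts upstream of *Col4a5* and *Col4a6* held 1 CCAAT and 1 GGGCGG (printed on its other strand). Of the 44 collagen genes, 35 were matched to a promoter window from 250 bases before to 50 after the start. CCAAT stood in 13 of these 35 and in 33.8% of all 32851 promoters, TATAAA in 5 of 35 and in 12.4%, and GGGCGG in 21 of 35 and in 32.7%. *Col4a2* was among these 21 and *Col4a1* was not, although the overlap printed above holds a GGGCGG. The window counts and the printed sequences are therefore not directly comparable. A match of these letters is a description of the window and not a sign that a factor is bound there.

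All 44 genes had at least 1 UMI in the cells kept, and 38 reached 10 CPM in at least 1 named class. *Col8a2*, *Col10a1*, *Col17a1*, *Col19a1*, *Col20a1* and *Col22a1* did not. Each group of collagens had its own set of cells, as the map of levels by class shows. In stromal-like cells lay 97.5% of the *Col1a1* UMIs of room air and 97.6% of those of hyperoxia, whereas *Col4a1* was divided between endothelial-like cells (50.8% and 54.8%) and stromal-like cells (42.4% and 38.0%). *Col4a3* was an epithelial gene, with 93.6% of its UMIs in epithelial-like cells in both libraries.

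**Figure D1:**
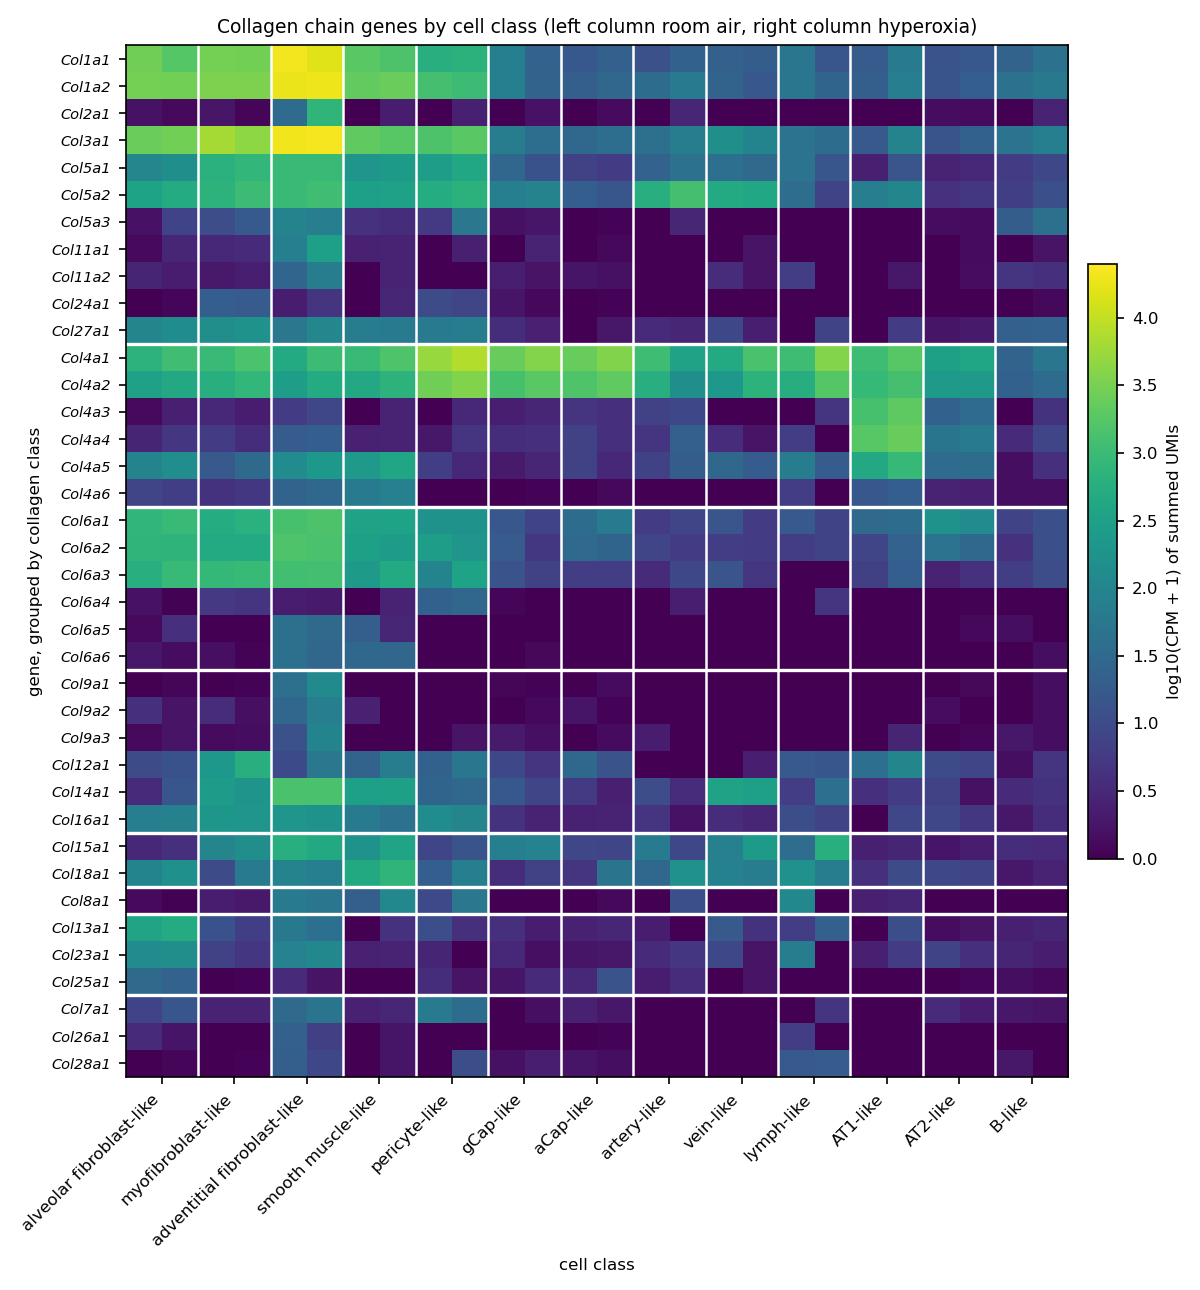
Levels of the 38 collagen genes with at least 10 CPM in a named class, as log10(CPM + 1) of summed UMIs (colour), with a row for each gene, grouped by collagen class, and a pair of columns for each cell class, room air on the left and hyperoxia on the right. Most fibrillar genes are brightest in the adventitial fibroblast-like columns, Col4a1 and Col4a2 in the pericyte-like columns and Col4a3 to Col4a5 in the AT1-like columns. The B-like columns serve as a rough guide to the level of free RNA for most genes, but not for Col5a3.

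In stromal-like cells as a whole (845 cells in room air, 2598 in hyperoxia), type IV collagen was higher in hyperoxia while the fibrillar collagens were nearly level. The type IV genes summed to 2009.9 and 2458 CPM (log2 ratio 0.29, 0.27 to 0.31). The fibrillar genes summed to 14767 and 14301 CPM (log2 ratio -0.046, -0.054 to -0.038). Of the 25 collagen genes with a mean of at least 10 CPM, 6 were at least 2-fold higher in hyperoxia (*Col2a1*, *Col4a5*, *Col8a1*, *Col11a1*, *Col13a1* and *Col18a1*) where 1.63% of all 8783 genes at that level were. None was 2-fold lower, against 1.26% of all genes. The median log2 ratio of these 25 genes was 0.34, against 0.0031 over all genes tested. Of the 25, 21 lay above 0, against 50.5% of all genes. The makeup of the stromal-like cells differed between the libraries, with 420 of 845 cells myofibroblast-like in room air and 772 of 2598 in hyperoxia. When the hyperoxia types were weighted as in room air, the type IV log2 ratio was 0.57 and the fibrillar one -0.10. Under the same weighting the log2 ratios of *Col4a5* and *Col13a1* were 0.72 and 0.39, both below 2-fold. With double the doublets removed the log2 ratio of *Col8a1* in stromal-like cells was 0.37 in place of 1.24. The *Col2a1* and *Col11a1* ratios rested on very few cells, as described further on.

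The fibrillar genes were led by adventitial fibroblast-like cells, the fibroblasts around vessels and airways, with a sum of 62196 and 60107 CPM and a median of 6.00% and 5.42% of the UMIs of a cell. Myofibroblast-like cells, which line the rims of growing alveolar septa, followed at 14398 and 12906 CPM, and alveolar fibroblast-like cells, the lipid-rich fibroblasts of the septum, at 8799.8 and 8291 CPM. Smooth muscle-like cells had 6663 and 6388 CPM and pericyte-like cells, the mural cells of capillaries, 4235 and 4829.8 CPM. This order was the same in both libraries. Across 12 stromal-like, endothelial-like and epithelial-like types the fibrillar sum was higher in hyperoxia in 5 and lower in 7, and within the 5 stromal-like types no log2 ratio went beyond 0.19 (pericyte-like) or -0.16 (myofibroblast-like).

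**Figure D2:**
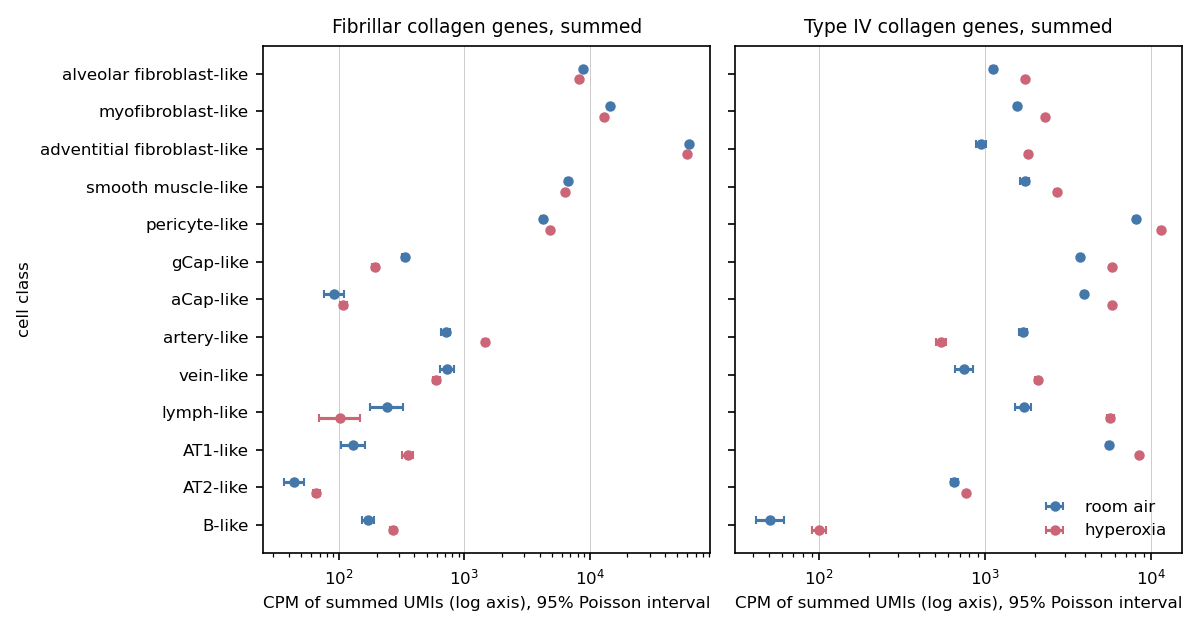
Summed CPM of the 11 fibrillar (left) and 6 type IV (right) collagen genes by cell class, on a log axis, with points for room air and hyperoxia and bars for exact 95% Poisson intervals. The fibrillar points of the 5 stromal-like classes nearly coincide between the libraries, while the type IV points of hyperoxia lie to the right in every class shown except artery-like.

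The level sums hid unequal shifts among the chains of types I and III. *Col1a1*, which codes for the chain present in 2 copies in each type I molecule, was at 2741 and 1729.8 CPM in alveolar fibroblast-like cells (log2 ratio -0.66, -0.70 to -0.63) and at 20803 and 15260.4 CPM in adventitial fibroblast-like cells (log2 ratio -0.45, -0.47 to -0.42). Its partner *Col1a2* in alveolar fibroblast-like cells was at 3009 and 2873 CPM (log2 ratio -0.067, -0.099 to -0.034). The ratio of *Col1a2* to *Col1a1* UMIs in these cells was therefore 1.10 (95% interval 1.07 to 1.13) in room air, and 1.66 (1.63 to 1.69) was found for hyperoxia. It was also higher in hyperoxia in adventitial fibroblast-like cells (0.895 and 1.30) and smooth muscle-like cells (1.17 and 1.62), about level in myofibroblast-like cells (1.15 and 1.19) and lower in pericyte-like cells (2.18 and 1.52). The alveolar fibroblast-like cells of the libraries fell mostly into different clusters, 171 of the 217 cells of room air into 1 cluster and 536 and 503 of the 1195 cells of hyperoxia into 2 others. *Col1a1* was at 2717 CPM in the former and at 1776 and 1651 CPM in the latter. In their low-depth shared cluster of 39 and 151 cells the order was the other way, with *Col1a1* at 1188 and 2224 CPM. *Col3a1*, the single chain of type III collagen, was at 6444 and 4556 CPM in myofibroblast-like cells (log2 ratio -0.50, -0.52 to -0.48). In alveolar fibroblast-like cells it was at 2486 and 2866 CPM (log2 ratio 0.21, 0.17 to 0.24).

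The chains of type V collagen, which sets fibril width by co-assembling with type I, ran slightly the other way. *Col5a2* was at 702 and 1044 CPM in myofibroblast-like cells (log2 ratio 0.57, 0.52 to 0.62) and at 349 and 518 CPM in alveolar fibroblast-like cells (log2 ratio 0.57, 0.48 to 0.66). *Col5a1* was highest in adventitial fibroblast-like cells (953 and 927 CPM) and stood at 643 and 833 CPM in myofibroblast-like cells. The less common chain *Col5a3* differed more, with 4.63 and 55.4 CPM in pericyte-like cells (log2 ratio 3.58, 2.29 to 5.24), from 5 UMIs in room air and 76 in hyperoxia. *Col27a1* (149 and 182 CPM, log2 ratio 0.29, 0.17 to 0.41) and *Col24a1* (19.5 and 17.2 CPM, log2 ratio -0.19, -0.54 to 0.17), fibrillar chains of lower level, were highest in myofibroblast-like cells, and the interval of the latter includes no difference.

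In alveolar fibroblast-like cells 1 of the 19 collagen genes with a mean of at least 10 CPM was 2-fold higher in hyperoxia (*Col7a1*, 6.68 and 13.8 CPM), against 2.35% of all genes, and none was 2-fold lower, against 1.99%. In myofibroblast-like cells 3 of 19 were higher (*Col4a5*, *Col12a1*, *Col18a1*), against 1.55% of all genes, and none lower, against 1.46%. Smooth muscle-like cells had 4 of 21 higher (*Col6a3*, *Col8a1*, *Col12a1*, *Col15a1*), against 4.13%, and *Col6a5* lower, against 3.4%. In pericyte-like cells 5 of 20 were higher (*Col5a3*, *Col6a3*, *Col8a1*, *Col12a1*, *Col18a1*), against 3.97%, and none lower, against 4.12%. The pericyte-like cells of the libraries fell into almost wholly different clusters, of 100 and 3, 5 and 134, and 6 and 31 cells. The medians of the log2 ratios were 0.42, 0.29, 0.17 and 0.32 in these 4 types, with those of all genes between -0.010 and 0.026.

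Type IV collagen was the group with the broadest difference. Its summed level was higher in hyperoxia in 11 of the 12 types, with an interval above 0 in each of the 11, and lower in artery-like cells. The 11 log2 ratios ran from 0.23 in AT2-like cells, the surfactant-making cells of the alveolus, to 1.73 in the 14 and 30 lymph-like cells, and the median over the 12 types was 0.62. In lymph-like cells the summed level of their own 6 markers was 14383 and 2877 CPM, and its part in the collagen ratios there was not tested. Pericyte-like cells held the highest level of any type, 8069.7 and 11344 CPM (log2 ratio 0.49, 0.45 to 0.53). They were followed by AT1-like cells, the flat cells through which gas passes (5552 and 8447 CPM), and by the capillary types, aCap-like cells or aerocytes (3950.2 and 5754 CPM) and gCap-like or general capillary cells (3694 and 5807 CPM). Outside AT1-like cells most of each sum came from *Col4a1* and *Col4a2*, whose chains join in the common type IV molecule and whose genes are *ENSMUSG00000031502* (chr8:11198423-11312826, minus strand) and *ENSMUSG00000031503* (chr8:11312805-11449287, plus strand).

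*Col4a1* was at 2382 and 3907 CPM in gCap-like cells (log2 ratio 0.71, 0.68 to 0.74), and *Col4a2* at 1307 and 1894 CPM (log2 ratio 0.54, 0.49 to 0.58). In aCap-like cells *Col4a1* was at 2388 and 3662 CPM (log2 ratio 0.62, 0.56 to 0.67). The capillary cells of the libraries fell into partly different clusters, among them aCap-like clusters of 1 and 239 and of 99 and 6 cells. For *Col4a1* the order was the same in each of the clusters with at least 10 cells of both libraries. *Col4a2* had the other order in an aCap-like cluster of 35 and 218 cells (1438 and 1261 CPM). *Col4a1* was at 1779.9 and 3618 CPM in a gCap-like cluster of 45 and 102 cells, and at 2865 and 3851 CPM in an aCap-like cluster of 13 and 604 cells. Myofibroblast-like cells also had more in hyperoxia, 945 and 1449 CPM (log2 ratio 0.62, 0.57 to 0.66). They did so in a shared cluster of 125 and 254 cells (1419 and 1718 CPM) and in one of 71 and 158 cells (657 and 1285 CPM). Alveolar fibroblast-like cells had 685 and 1121 CPM (log2 ratio 0.71, 0.65 to 0.78), but in the shared cluster of 39 and 151 cells the order was again the other way (1326 and 712 CPM). In adventitial fibroblast-like cells, which had the lowest *Col4a1* of the stromal-like types, the level was 487 and 1018 CPM (log2 ratio 1.07, 0.91 to 1.22). With stricter limits on cells the log2 ratio of *Col4a1* in adventitial fibroblast-like cells was 0.65.

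The shift was spread over the cells and did not come from a few. The median gCap-like cell gave 0.348% of its UMIs to type IV genes in room air and 0.553% in hyperoxia, and the 25th percentile in hyperoxia (0.424%) lay above the median in room air. In pericyte-like cells the medians were 0.783% and 1.05%, in myofibroblast-like cells 0.141% and 0.21%, and in AT1-like cells 0.558% and 0.685%. The ratio of *Col4a1* to *Col4a2* UMIs was higher in hyperoxia in 10 of the 12 types. In gCap-like cells it was 1.82 (95% interval 1.77 to 1.88) and 2.06 (2.02 to 2.103), and AT1-like cells had the lowest of the 12 in each library, 1.19 and 1.44. The summed type IV level of B-like cells was also higher in hyperoxia (0.98), and its part in the difference was not tested. With the CPM of B-like cells subtracted, the log2 ratio was 0.27 in stromal-like cells, from 0.29, and 0.60 in endothelial-like cells, from 0.61.

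**Figure D3:**
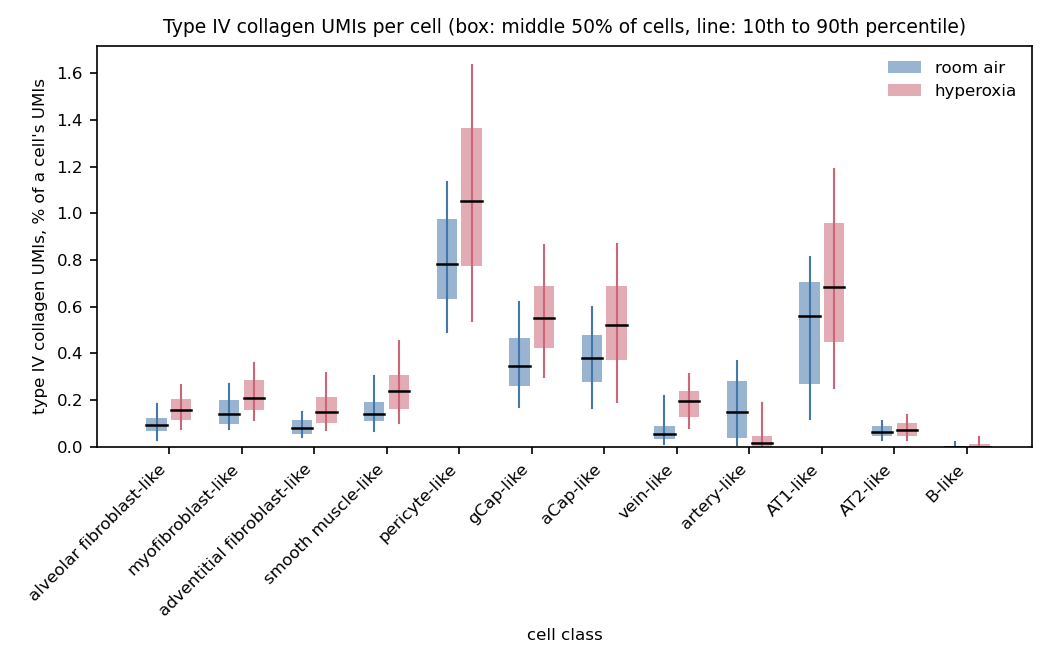
Share of each cell's UMIs that came from the 6 type IV collagen genes, by cell class, for room air and hyperoxia. Boxes span the middle 50% of cells, thin lines the 10th to 90th percentile and black lines the median, and the hyperoxia median is the higher one except in B-like cells (0 in both) and artery-like cells (0.148% and 0.0150%).

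Artery-like cells, the lining of arteries, were the exception, and their cluster was shared by 92 cells of room air and 154 of hyperoxia. *Col4a1* was at 1089 and 336 CPM in these cells (log2 ratio -1.70, -1.86 to -1.54), and *Col4a2* at 588 and 153 CPM (log2 ratio -1.94, -2.17 to -1.71). Cells with at least 1 *Col4a1* UMI made up 88.0% and 57.8%, or 74.2% and 36.1% after each cell had been thinned to 2000 UMIs, with 3 and 7 shallower cells left out. In B-like cells, with a median of 4491 and 2906 UMIs against 7638.5 and 8504.5 in artery-like cells, the share was 10.1% and 14.4%. In the same cells *Col5a2* was at 595 and 1256 CPM (log2 ratio 1.08, 0.93 to 1.23) and *Col18a1* at 28.5 and 164 CPM (log2 ratio 2.53, 1.91 to 3.21). *Col15a1* was at 64.4 and 8.07 CPM, with 48.1% of the *Col15a1* UMIs of room air in 1 cell. Of the 11 collagen genes at a mean of 10 CPM, 4 were 2-fold higher (*Col4a4*, *Col4a5*, *Col5a2*, *Col18a1*), against 5.8% of all genes, and 3 lower (*Col4a1*, *Col4a2*, *Col15a1*), against 5.4%.

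The artery-like result depended on which cells were counted. The gCap-like markers, whose cells are rich in type IV collagen, summed to 3523 CPM in the artery-like cells of room air and 2665 CPM in those of hyperoxia, while the artery-like markers were at 3345 and 3167 CPM. Among artery-like cells at or under their median of gCap-like and aCap-like markers, *Col4a1* was at 351 CPM in 37 cells of room air and 102 CPM in 86 of hyperoxia. Among those above it *Col4a1* was at 1622 CPM in 55 cells and 669 CPM in 68. The split does not match the capillary markers of the libraries within a side, and their part in the result was not tested. The order was the other way when each cell was named by its own marker score (type IV log2 ratio 0.50). At a coarser clustering with 40 and 143 artery-like cells the type IV log2 ratio in artery-like cells was -0.42. That of *Col5a2* in artery-like cells was 0.22 at this clustering and 0.52 with naming by marker score. The stromal-like markers were also higher in the artery-like cells of hyperoxia (6272 and 19693 CPM), through *Eln* (3256 and 9880 CPM), *Mgp* (2562 and 8824 CPM) and *Bgn* (226 and 783 CPM). The 5 others summed to 228 and 206 CPM. The part of these genes in the result was not tested, and *Col1a1*, at 11.1 and 22.2 CPM, was below its level in B-like cells, 24.1 and 44.2 CPM.

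Among the other endothelial-like types, vein-like cells (37 and 116) had type IV genes at 745 and 2061 CPM (log2 ratio 1.47, 1.29 to 1.65) and *Col15a1* at 82.5 and 245 CPM (log2 ratio 1.57, 1.04 to 2.15). In lymph-like cells (14 and 30) *Col15a1* was at 36.8 and 603 CPM, from 7 and 170 UMIs. All endothelial-like cells together (951 and 2357) had 1 of 12 genes 2-fold higher, *Col18a1*, against 1.92% of all genes, and 2 lower, *Col1a1* and *Col1a2*, against 2.91%. In gCap-like cells 6 of 11 were lower (*Col1a1*, *Col1a2*, *Col5a1*, *Col6a1*, *Col6a2*, *Col14a1*), against 3.4% of all genes, and none higher, against 1.7%. These 6 were low in both libraries, and *Col1a1* was at 77.4 and 23.5 CPM, beside 24.1 and 44.2 CPM in B-like cells. Its room air level was 503 CPM in a cluster of 45 cells and 17.5 CPM in one of 540, and the log2 ratio of *Col1a1* in gCap-like cells was -0.0045 with no doublets removed. In aCap-like cells *Col18a1* was the gene higher, against 2.07% of all genes, and *Col12a1* (28.8 and 12.6 CPM) the one lower, against 2.81%.

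The 4 minor type IV chains had narrower sources. *Col4a3*, *Col4a4* and *Col4a5*, whose chains join into a separate network found in the alveolar and glomerular basement membranes, were highest in AT1-like cells. *Col4a3* was at 1336 and 2028 CPM there (log2 ratio 0.60, 0.49 to 0.72) and *Col4a4* at 1791 and 2422 CPM (log2 ratio 0.44, 0.34 to 0.54). With no doublets removed the log2 ratio of *Col4a3* in AT1-like cells was -0.015 and that of *Col4a4* in AT1-like cells -0.15. *Col4a5* was at 451 and 901 CPM (log2 ratio 0.9985, 0.81 to 1.19), just short of 2-fold. AT1-like cells, 65 of the 3680 cells of room air and 127 of the 10472 of hyperoxia, held 87.7% and 78.1% of all *Col4a3* UMIs, and AT2-like cells most of the rest (5.53% and 15.3%). *Col4a5* was also a stromal-like gene, at 231 and 396 CPM in smooth muscle-like cells (log2 ratio 0.78, 0.53 to 1.04) and 93.9 and 141 CPM in alveolar fibroblast-like cells (log2 ratio 0.59, 0.41 to 0.77). *Col4a6*, its neighbour and partner in smooth muscle basement membranes, was highest in smooth muscle-like cells at 66.5 and 82.3 CPM (log2 ratio 0.31, -0.18 to 0.82), an interval that includes no difference.

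Over 16 types with at least 50 cells in each library (32 points, 2 per type, which share library and depth), the log2 levels of the paired genes had a Pearson r of 0.99 for *Col4a1* and *Col4a2*, 0.98 for *Col4a3* and *Col4a4* and 0.88 for *Col4a5* and *Col4a6*. For comparison, *Col1a1* and *Col1a2*, which lie on different chromosomes, had 0.99, and *Col4a1* and *Col1a1* had 0.49. These values describe the libraries and carry no test.

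Type VI collagen, whose chains from *Col6a1*, *Col6a2* and *Col6a3* join in equal shares into beaded filaments around cells, was a fibroblast group, highest in adventitial fibroblast-like cells (*Col6a1* 1330.3 and 1486 CPM). *Col6a3*, the longest chain, was higher in hyperoxia in pericyte-like cells, at 97.2 and 354 CPM (log2 ratio 1.86, 1.56 to 2.18), and in alveolar fibroblast-like cells, at 584 and 929 CPM (log2 ratio 0.67, 0.60 to 0.74). *Col6a2* in pericyte-like cells was at 286 and 199.6 CPM (log2 ratio -0.52, -0.76 to -0.28). In smooth muscle-like cells *Col6a3* was at 226 and 486 CPM (log2 ratio 1.10, 0.85 to 1.36), but its log2 ratio was 0.0573 without doublet removal, where 96 and 319 cells took the name in place of 51 and 221. AT2-like cells had *Col6a1* with little *Col6a2*, at ratios of 3.75 and 4.404 against 1.001 and 1.27 in stromal-like cells. *Col6a1* was at 174 and 129 CPM in AT2-like cells (log2 ratio -0.43, -0.58 to -0.27). The chains *Col6a4*, *Col6a5* and *Col6a6*, which can take the place of *Col6a3*, were low, with *Col6a4* at 22.2 and 27.0 CPM in pericyte-like cells and *Col6a6* at 40.5 and 26.9 CPM in adventitial fibroblast-like cells. *Col6a5* was at 20.6 and 2.01 CPM in smooth muscle-like cells, a ratio that turned to 0.0604 on the log2 scale without doublet removal.

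Among the fibril-associated collagens, which lie on the surface of fibrils, *Col12a1* had the clearest difference in an abundant type. In myofibroblast-like cells it was at 217 and 573 CPM (log2 ratio 1.40, 1.31 to 1.49). Cells with a UMI of it made up 64.3% and 82.6%, and 27.0% and 55.4% when thinned, with 2 and 3 shallower cells left out. In B-like cells the share was 0.246% and 1.21%, at a median of 4491 and 2906 UMIs against 14273 and 12198 in myofibroblast-like cells. Myofibroblast-like cells held 84.1% and 83.9% of the *Col12a1* UMIs. In 1 shared cluster of 71 and 158 cells *Col12a1* was at 427 and 972 CPM and in another of 125 and 254 cells at 23.2 and 131 CPM. The difference was smaller in one of 12 and 355 cells, at 504 and 734 CPM. In room air *Col12a1* was at 243 CPM in a further cluster, of 212 and 5 cells. It was also higher in pericyte-like cells (22.2 and 51.7 CPM, log2 ratio 1.22, 0.53 to 1.95), and in smooth muscle-like cells (23.7 and 73.0 CPM), where the sign turned under a finer clustering (log2 ratio -0.63). *Col14a1*, its relative in mature fibrils, was highest in adventitial fibroblast-like cells and level there (1347 and 1377 CPM, log2 ratio 0.032, -0.067 to 0.13), and in myofibroblast-like cells stood at 274 and 187 CPM (log2 ratio -0.55, -0.65 to -0.45). Vein-like cells had it too, at 343 and 300.3 CPM. *Col16a1* was widespread in stromal-like types, with 211 and 196 CPM in myofibroblast-like cells and 136 and 101 CPM in pericyte-like cells (log2 ratio -0.43, -0.77 to -0.082).

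The basement-membrane collagens with sugar chains, *Col18a1*, the source of endostatin, and *Col15a1*, were mostly higher in hyperoxia when their UMIs were summed. Their sum was higher in 9 of the 10 types at a mean of 10 CPM and lower in adventitial fibroblast-like cells. *Col18a1* was at 9.25 and 60.4 CPM in myofibroblast-like cells (log2 ratio 2.71, 2.30 to 3.14), from 54 and 592 UMIs. In the shared cluster of 125 and 254 cells it was at 1.19 and 70.9 CPM, and in that of 71 and 158 cells at 24.1 and 17.2 CPM, the other order. A further cluster held 212 of the room air cells and 5 of hyperoxia. Cells with a UMI of *Col18a1* made up 8.57% and 38.0% of all myofibroblast-like cells and 0.491% and 0.528% of the B-like cells. Its highest level was in smooth muscle-like cells, 464 and 762 CPM (log2 ratio 0.72, 0.54 to 0.90), and pericyte-like cells had 19.4 and 74.3 CPM (log2 ratio 1.93, 1.25 to 2.69). In aCap-like cells it was at 3.79 and 47.8 CPM (log2 ratio 3.66, 2.42 to 5.29), with 134 CPM in a cluster of 239 hyperoxia cells, which held 1 cell of room air, and 12.2 CPM in another of 604 hyperoxia cells. In vein-like cells it was 85.1 and 68.8 CPM, with an interval that includes no difference (log2 ratio -0.31, -0.89 to 0.31). In the 14 and 30 lymph-like cells *Col18a1* was lower in hyperoxia, at 168 and 70.9 CPM, while *Col15a1* was higher there. *Col15a1* was at 584 and 461 CPM in adventitial fibroblast-like cells (log2 ratio -0.34, -0.50 to -0.18) and 182 and 366 CPM in smooth muscle-like cells (log2 ratio 1.01, 0.73 to 1.30).

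**Figure D4:**
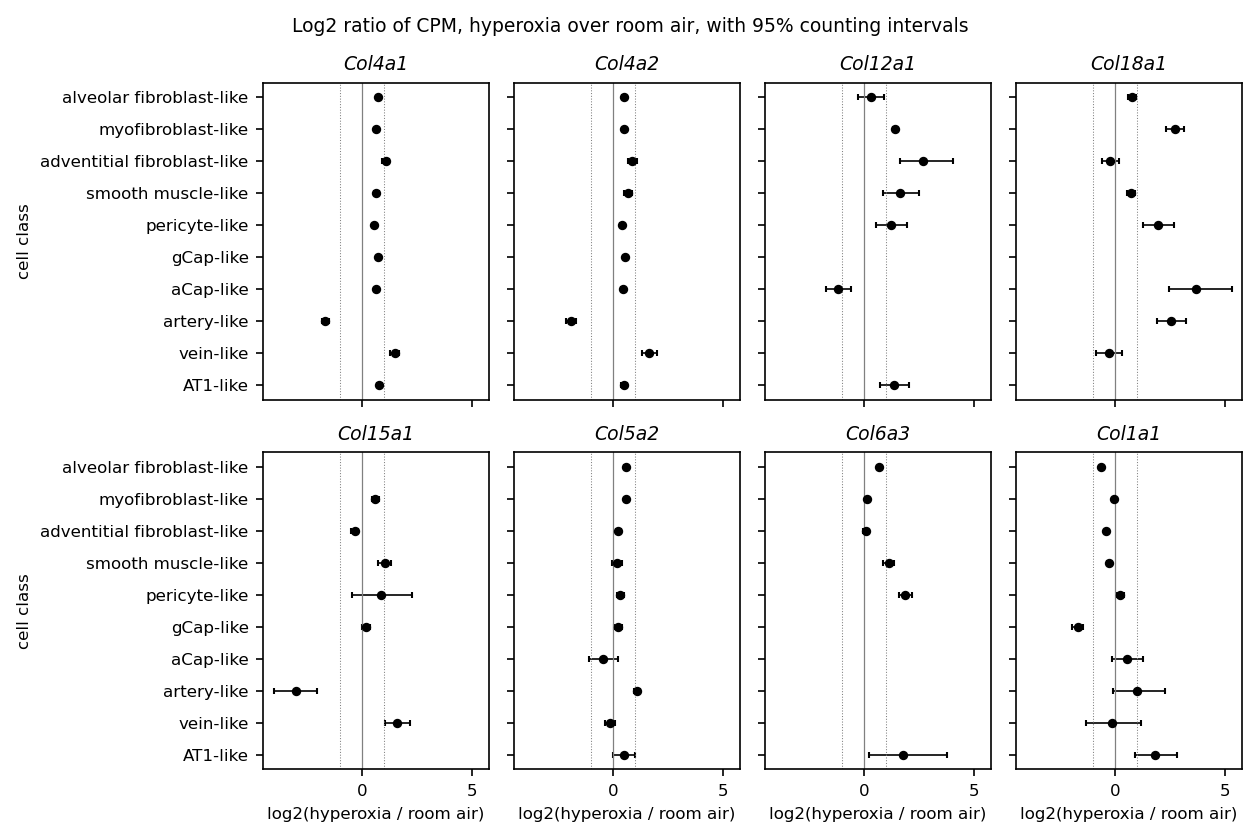
Log2 ratio of CPM, hyperoxia over room air, of 8 collagen genes by cell class, for classes with a mean of at least 10 CPM and a UMI in both libraries. Points are ratios of summed counts, bars exact 95% counting intervals, the solid line no difference and the dotted lines 2-fold. Col4a1 and Col4a2 lie to the right in every class shown except artery-like, while Col1a1 lies to the left in 4 of the 5 stromal-like classes.

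The membrane-spanning collagens separated the fibroblasts. *Col13a1* was at 367 and 512 CPM in alveolar fibroblast-like cells (log2 ratio 0.48, 0.39 to 0.57). Of these cells 84.3% and 88.5% had a UMI of it, and they held 86.9% and 95.2% of its UMIs. *Col14a1* had a UMI in 95% and 91.7% of the adventitial fibroblast-like cells but in 3.23% and 7.36% of the alveolar fibroblast-like cells. In B-like cells *Col13a1* had a UMI in 0.737% and 0.603% and *Col14a1* in 1.23% and 1.13%. Among myofibroblast-like cells 55.5% and 43.1% had *Col14a1*, and 10.5% and 5.18% had *Col13a1*. Both genes together were seen in 30% and 22.4% of the adventitial fibroblast-like cells, though not in more than 5.77% of the other 2 types. The adventitial fibroblast-like clusters were unlike in this. *Col13a1* had a UMI in 64.7% and 42.9% of the cells of one (17 and 70 cells). In the other (23 and 135 cells) the share was 8.70% and 13.3%. *Col23a1* (131 and 147 CPM) and *Col25a1* (31.8 and 23.2 CPM), of the same membrane group, were also highest in alveolar fibroblast-like cells.

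Some rarer chains marked mural and adventitial cells. *Col8a1*, a short chain of vessel walls, was at 20.6 and 112 CPM in smooth muscle-like cells (log2 ratio 2.44, 1.64 to 3.37) and at 8.33 and 54.6 CPM in pericyte-like cells. In the latter, 41.3% of the hyperoxia UMIs came from 1 cell. In smooth muscle-like cells this ratio turned to -1.08 on the log2 scale when each library was clustered on its own. *Col7a1*, which forms the fibrils that anchor basement membranes, was at 63.9 and 35.0 CPM in pericyte-like cells (log2 ratio -0.87, -1.43 to -0.32). *Col26a1* (21.5 and 5.90 CPM) and *Col28a1* (20.3 and 8.11 CPM) were low genes of adventitial fibroblast-like cells, each from 16 or 17 UMIs in room air. Without the richest cell of each library the log2 ratio of *Col28a1* in adventitial fibroblast-like cells was 0.51. *Col5a3* was also found outside the stroma, in B-like cells at 18.9 and 40.6 CPM. In a B-like cluster of 23 and 147 cells it was at 408 and 315 CPM, with a UMI in 47.8% and 38.1% of the cells.

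Adventitial fibroblast-like cells had 8 of 34 collagen genes 2-fold higher (*Col2a1*, *Col4a1*, *Col9a1*, *Col9a2*, *Col9a3*, *Col11a1*, *Col11a2*, *Col12a1*), against 3.35% of all genes, and 2 lower (*Col26a1*, *Col28a1*), against 2.49%. Of the 8, 6 are chains of cartilage, and these came from very few cells. *Col2a1*, the main fibrillar chain of cartilage, was at 32.9 and 765 CPM in adventitial fibroblast-like cells. However, over all cells, 5 cells with at least 20 *Col2a1* UMIs held 98.1% of the 2112 UMIs of hyperoxia. In room air 2 such cells held 75.4% of the 61 UMIs. Of these 2, 1 lay in a cluster left unnamed, outside the adventitial fibroblast-like cells. The same 5 cells held 86.4% of the *Col11a1* UMIs and 95.9% of the *Col9a1* UMIs of hyperoxia. They had *Acan* and *Sox9*, genes of cartilage cells, with 5 to 110 and 2 to 89 UMIs per cell and at most 4 of *Col1a1*. Without the cells with at least 20 *Col2a1* UMIs the log2 ratio of *Col2a1* in stromal-like cells was -1.13 in place of 4.63, and that of *Col11a1* in stromal-like cells was 0.68 in place of 2.18. Then 4 collagen genes in place of 6 were 2-fold higher in stromal-like cells. The clusters left unnamed held 1 room air cell with 197 of the 206 *Col10a1* UMIs of both libraries, a chain of growing cartilage.

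**Figure D5:**
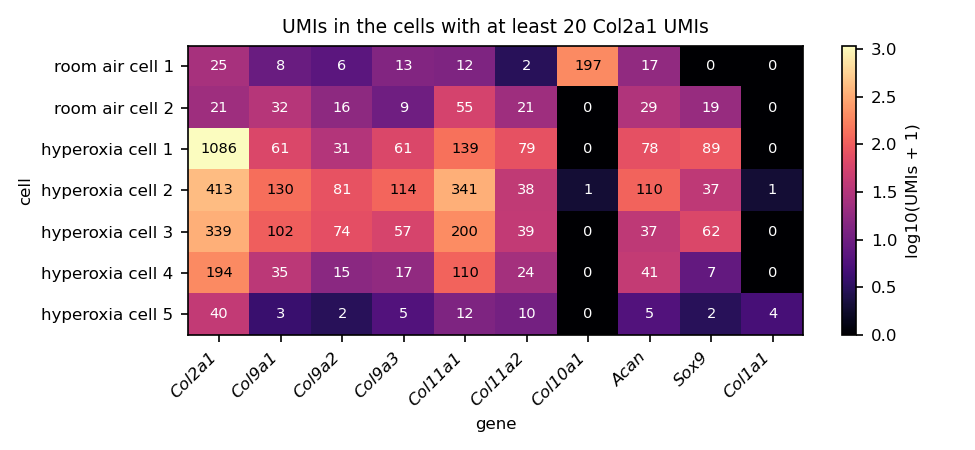
UMIs of cartilage-related genes and Col1a1 in the 7 cells with at least 20 Col2a1 UMIs, 2 of room air and 5 of hyperoxia, with the number of UMIs printed in each field and log10(UMIs + 1) as colour. Hyperoxia cell 1 holds 1086 Col2a1 UMIs and room air cell 1 holds 197 of Col10a1.

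In AT1-like cells all 14 collagen genes at a mean of 10 CPM had log2 ratios above 0, against 51.3% of all genes. Of the 14, 6 were 2-fold higher (*Col1a1*, *Col1a2*, *Col3a1*, *Col6a2*, *Col6a3*, *Col12a1*), against 4.5% of all genes, with none lower, against 4.77%. *Col1a1* was at 17.8 and 61.0 CPM, beside 24.1 and 44.2 CPM in B-like cells, and 32.8% of its hyperoxia UMIs came from 1 cell. Stromal-like markers summed to 251 and 1387 CPM in the AT1-like cells. Epithelial-like markers, which include the AT2-like markers *Sftpc* and *Sftpb*, summed to 42689 and 11917 CPM. The AT1-like markers themselves were at 23776 and 22915 CPM. The part of these markers in the 6 genes was not tested. As a mean over single cells, the log2 ratio of *Col1a1* was -0.30. *Col12a1* was above the level of B-like cells (0.472 and 3.67 CPM), at 39.9 and 102 CPM (log2 ratio 1.35, 0.73 to 2.02).

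Genes that act on collagen chains were counted in the same way. Of 18 genes that fold and modify the chains, 17 reached a mean of 10 CPM in stromal-like cells, none was 2-fold apart, against 1.63% of all genes higher and 1.26% lower, and their median log2 ratio was 0.0070. *Serpinh1*, the collagen chaperone and the highest of them, was at 994 and 954 CPM. Of the genes that remove propeptides 4 reached this level and none was 2-fold apart, with *Adamts2* at 525 and 497 CPM. Among 6 crosslinking genes 1 was 2-fold higher, *Tgm2*, a transglutaminase, at 52.5 and 156 CPM (log2 ratio 1.57, 1.45 to 1.70), and *Loxl1*, a lysyl oxidase, was the highest at 519 and 488 CPM. The 5 receptor and uptake genes held no 2-fold difference, with *Itgb1*, the shared beta chain of the collagen-binding integrins, at 989 and 1052 CPM. In alveolar fibroblast-like cells 2 of 5 crosslinking genes were higher, against 2.35% of all genes, and their median log2 ratio was 0.64. In myofibroblast-like cells 2 of 17 modifying genes were higher, against 1.55% of all genes, and 1 of 4 genes that remove propeptides was lower, against 1.46%. Pericyte-like cells had 2 of 16 modifying genes and 2 of 6 crosslinking genes higher, against 3.97% of all genes, and of 5 genes that remove propeptides 1 was higher and 1 lower, against 4.12% lower. In artery-like cells 2 of 15 modifying and 2 of 4 crosslinking genes were higher, against 5.8% of all genes, and 1 of 5 receptor and uptake genes was lower, against 5.4%. In endothelial-like cells together 1 of 16 modifying genes was higher, against 1.92%. The other members of these 4 lists held no 2-fold difference in these 5 classes.

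The genes outside the family whose levels were most like those of the fibrillar sum across the 16 types (32 points that share library and depth) were *Ddr2* (Pearson r 0.97), *Bgn* (0.97), *Fbn1* (0.97), *Mxra8* (0.96) and *Dkk3* (0.95). For the type IV sum they were *Fermt2* (0.96), *Dlc1* (0.96), *Epn2* (0.95), *Crip2* (0.95) and *Serpinh1* (0.95). These genes are named for their pattern alone.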

How the data were processed

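Whole lung cells of 8 mice per group gave 1 droplet library for room air and 1 for hyperoxia. The authors demultiplexed the reads with bcl2fastq 2.20 and deposited raw UMI counts per gene and barcode, unnormalized, for barcodes called as cells by Cell Ranger against mm10. The submitters' processing notes give Cell Ranger 2.1.1, the labels 6.1.1 and the file headers software 3.1.0, and which made the counts could not be settled. The labels name version 2 of the 3′ kit and the study's methods version 3.

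Python 3.11.15 was used with pandas 2.3.3, scipy 1.17.1 and numpy 2.4.6. Barcodes with under 500 genes (345 in room air, 1026 in hyperoxia) or over 20% mitochondrial UMIs (80 and 486) were left out. Simulated doublets, 2 per cell, ranked the rest, and the highest ranks were removed at 0.8% per 1000 barcodes (129 and 1239 cells). The 2000 most variable genes without collagens were reduced to 30 components, and a graph of 20 neighbours was clustered at resolution 1 (scikit-learn 1.9.0, igraph 0.11.9, leidenalg 0.10.2, seed 1). Clusters took the name with the highest marker score, where a marker counted from 5% of cells and a log2 difference of 0.5, with at least 3 markers and a check of the 10 leading genes. This naming rule and the rule for mixed clusters were set after clusters had been seen.

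UMIs were summed per class and library as CPM, with exact Poisson, conditional and Clopper-Pearson 95% intervals that cover counting error only. Genes with a mean of at least 10 CPM and a ratio of at least 2-fold were counted, with no test, since each group was 1 library. A count of 0 was read as up to 3 counts where described, but entered the levels as 0. The depth per class sets the precision, from 190289 UMIs in the 14 lymph-like cells of room air to 12848205 in the 1195 alveolar fibroblast-like cells of hyperoxia. The ratio and interval code was tested on simulated data. Named genes were all members with at least 10 CPM in a named class, list genes 2-fold apart in stromal-like cells or highest in their list, and the 5 genes of most similar pattern by Pearson r of log2(CPM + 1). The members, lists and tests were chosen with earlier results of these data known. Alternatives changed cell limits, doublets, resolution, naming, summing and scaling (edgeR 4.0.16 TMM and DESeq2 1.42.0 factors in R 4.3.3). Figures were drawn with matplotlib 3.10.9.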

Additional observations from a re-analysis of the deposited data

Results flagged for a closer look

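Some genes were at least 2-fold higher in one cell type and at least 2-fold lower in another, a difference between cell types that was not tested. Lymph-like cells were left out of this listing. *Col1a1* had a log2 ratio of 1.78 in AT1-like cells and -1.72 in gCap-like cells, and *Col1a2* had 1.88 and -1.66 in the same types. *Col4a1* had 1.07 in adventitial fibroblast-like cells and 1.46 in vein-like cells but -1.70 in artery-like cells, and *Col4a2* had 1.64 in vein-like and -1.94 in artery-like cells. The type IV sum was at 1.47 in vein-like and -1.65 in artery-like cells. *Col12a1* had 1.40 in myofibroblast-like, 1.62 in smooth muscle-like, 1.22 in pericyte-like and 1.35 in AT1-like cells but -1.19 in aCap-like cells. *Col15a1* had 1.01 in smooth muscle-like and 1.57 in vein-like cells but -3.00 in artery-like cells. Outside the named classes, the mixed clusters held 197 UMIs of *Col10a1*, all in 1 cell, above the 3 UMIs that a count of 0 allows.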

How the results depend on the processing

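No paired analysis was possible because each group is 1 library. The fibrillar log2 ratio in stromal-like cells (-0.046) was -0.073 with no doublets removed, -0.055 with double the doublets removed, 0.0017 as a mean over single cells, -0.017 with TMM factors, -0.020 with DESeq2 size factors, -0.086 with haemoglobin, ribosomal protein and mitochondrial genes left out of the totals, -0.057 with B-like CPM subtracted, -0.027 without the richest cell of each library and -0.10 with the makeup of room air. The type IV ratio in stromal-like cells (0.29) was 0.25 with double the doublets removed, 0.14 as a mean over single cells, 0.32 with TMM and with DESeq2 factors, 0.25 without the mitochondrial and related genes, 0.27 with B-like CPM subtracted and 0.57 with the makeup of room air. In endothelial-like cells the type IV ratio (0.61) was 0.66, 0.54, 0.69, 0.67 and 0.585 under the first 5 of these settings. The 6 stromal-like genes past 2-fold became 10 at a mean of 1 CPM, 3 at 50 CPM and 10 at 1.5-fold. Cells with no UMI of other lineages' markers numbered 6 and 18 in stromal-like cells. There the fibrillar and type IV ratios were -0.37 and 2.03, and 10 genes passed 2-fold. *Col18a1* in stromal-like cells was at -1.57. *Col15a1* in smooth muscle-like cells was at -1.45, from only 2 and 1 such cells. In endothelial-like cells 0 and 3 such cells were left, so no value was computed.

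Of 60 single values past 2-fold, 47 fell under 2-fold in at least 1 alternative, and 809 of their 953 alternative values stayed past 2-fold in the same direction. The signs of 42 turned, and the cause was not tested. With stricter limits on cells (1000 genes or more, no more than 10% mitochondrial UMIs), *Col2a1* was at -1.12 in stromal-like and -3.02 in adventitial fibroblast-like cells, *Col9a2* at -3.39 in the latter and *Col6a5* in smooth muscle-like cells at 0.12. Without the cells with at least 20 *Col2a1* UMIs, *Col2a1* was at -1.13 and -2.50 and *Col9a2* at -3.35. With each cell named by its own marker score, adventitial fibroblast-like cells had *Col2a1* at -2.73, *Col9a2* at -3.58 and *Col11a1* at -0.24, endothelial-like cells *Col1a1* at 0.19 and *Col1a2* at 0.0064, gCap-like cells *Col1a1* at 0.21, *Col6a1* at 0.35 and *Col6a2* at 0.13, and artery-like cells the type IV sum at 0.50, *Col4a1* at 0.57 and *Col4a2* at 0.36. With double the doublets removed, smooth muscle-like cells had *Col8a1* at -2.10 and *Col12a1* at -1.01, endothelial-like cells *Col1a1* at 0.12 and *Col1a2* at 0.0053, gCap-like cells *Col1a1* at 0.17 and *Col6a1* at 0.12, artery-like cells *Col4a4* at -0.47 and AT1-like cells *Col6a2* at -0.75. With no doublets removed, *Col6a5* in smooth muscle-like cells was at 0.060, and gCap-like cells had *Col1a2* at 0.25, *Col6a1* at 1.25 and *Col6a2* at 0.78. With each library clustered on its own, smooth muscle-like cells had *Col8a1* at -1.08 and *Col12a1* at -0.20, and gCap-like cells *Col1a1* at 0.14 and *Col6a1* at 0.38. *Col12a1* in smooth muscle-like cells was at -0.63 at resolution 2, *Col15a1* in artery-like cells at 0.12 at resolution 0.5, and *Col28a1* in adventitial fibroblast-like cells at 0.51 without the richest cell. As means over single cells, AT1-like *Col1a1*, *Col1a2* and *Col6a3* were at -0.30, -0.33 and -0.22. Under these alternatives the *Col12a1* ratio in myofibroblast-like cells ran from 0.59 to 1.48 and that of *Col18a1* from 2.63 to 3.61. The 0.59 came from only 4 and 5 myofibroblast-like cells, those with no UMI of other lineages' markers. Depth limited the values of lymph-like, vein-like and adventitial fibroblast-like cells, of which room air had 14, 37 and 40.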
